A study of Saccharomyces cerevisiae with 3 samples.

Results

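The cytosolic ribosomal protein genes of the budding yeast Saccharomyces cerevisiae were followed across 3 independent steady-state chemostat cultures. They were taken by name, as the probe sets annotated to 1 gene whose symbol is RPL or RPS with a number and at most a copy letter, or is RPP0, RPP1A, RPP1B, RPP2A or RPP2B. This gave 105 of the 6504 single-gene probe sets, for 80 of 5656 measured genes, out of 137 genes in the RefSeq table that fit the name rule. Of the other 57, 54 lie on probe sets annotated to several genes and were not analysed here, and 3 are on no probe set of the annotation used here. All 3 cultures form 1 group. Each was aerobic, fed glucose as the limiting nutrient at 7.5 g per litre with ammonium sulphate at 5.0 g and zinc sulphate heptahydrate at 4.5 mg per litre, and held at a dilution rate of 0.10 per h, 30 °C and pH 5.0 with dissolved oxygen above 80% of air saturation. None of the labels read here names the strain. Biotin-labelled RNA of each culture was hybridized to an Affymetrix array of its own. Since a second condition is lacking, all comparisons below are descriptions, without tests or p-values.

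A yeast ribosome is built from a small subunit, which decodes the messenger RNA, and a large subunit, which forms the peptide bonds. Many of its proteins are encoded by a pair of near-identical genes, A and B, left from an ancient duplication of the genome. Ribosomal protein genes are known to be regulated together, through the factors Rap1, Fhl1, Ifh1 and Sfp1 and the growth signals of the TOR and protein kinase A pathways, and their transcription follows the growth rate, which a chemostat sets. At the side of the large subunit stands a flexible stalk of P0, P1 and P2 proteins, which recruits the translation factors that hydrolyse GTP.

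Signals are linear intensities per probe set, as deposited. The arrays differed in overall brightness, with median signals over all probe sets of 30.6, 70.9 and 52.5 in cultures 1, 2 and 3, so an SD of deposited signals (n = 3 throughout) includes that difference. Between cultures, log2 signals were compared with the arrays at a common median, as the deviation of a gene from its own mean over the 3 cultures. A gene is called bright over the 90th percentile of mean signal (589.6) and dim under the 30th (48.3). Comparisons between cultures used the 3959 genes that were not dim, 79 of them members. Signals of different probe sets do not order transcripts by amount. The number of arrays limits the precision.

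Nearly all members were bright. The count was 73 of 80, where the limit by its definition takes 566 of all 5656 genes, and 1 of 80 was dim, where that limit takes 1697. By subunit, 37 of 42 large subunit genes, 31 of 33 small subunit genes and 5 of 5 stalk genes were bright, as were all 18 members with no paralogue. Among the 79 that were not dim, signals ran from 162 to 4395 in culture 1, with a median of 1069.8, from 443 to 7616 in culture 2, with a median of 2407, and from 304 to 5413 in culture 3, with a median of 1633. RPL9A gave the lowest of these signals in every culture. Of other families, 2 of 43 genes for mitochondrial ribosomal proteins were bright, with a median mean signal of 149 against 1657 for the cytosolic set, and 2 of 41 ribosome biogenesis factors were, with a median of 127.

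**Figure D1:**
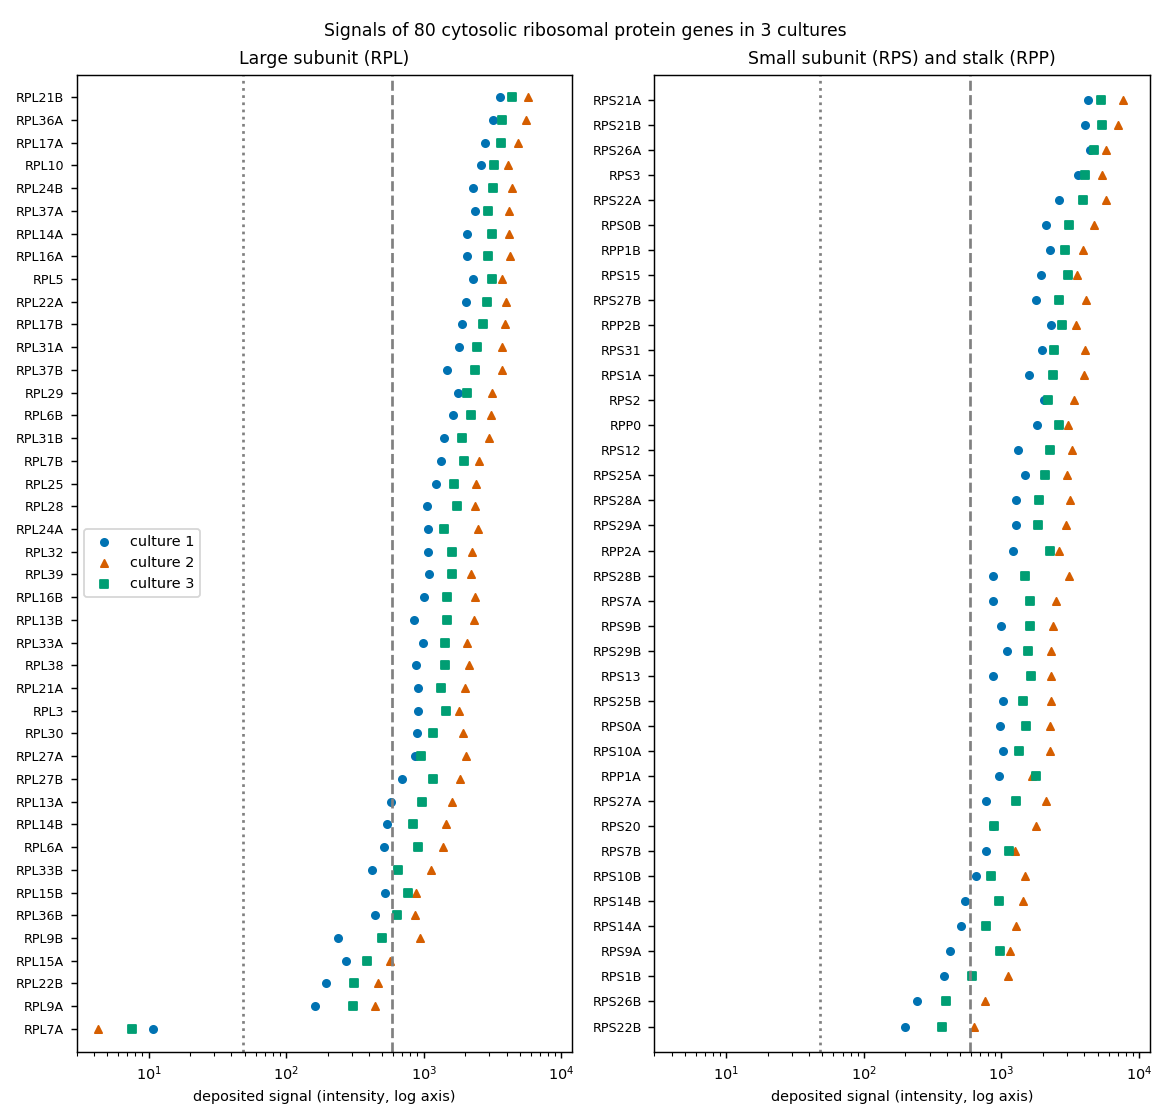
Deposited signal (log axis) of each of the 80 genes in cultures 1, 2 and 3, with genes sorted by mean signal; the dotted line is the limit for dim genes (48.3) and the dashed line that for bright genes (589.6). RPL7A, represented by its plain-named probe set, is the only gene left of the dotted line, and culture 2 gave the highest deposited signal for 78 of the 80 genes.

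With the representative probe sets the highest member signals came from the small subunit. RPS21A and RPS21B, which encode a pair of small proteins of that subunit, read 4249, 7616 and 5275, and 4044, 7004 and 5413, in cultures 1, 2 and 3. RPS26A, whose protein lies at the exit of the messenger RNA channel, read 4395, 5793 and 4739. RPS3, whose protein lines the entry of that channel, read 3584, 5415 and 4040.5, a mean of 4346 ± 954 (mean ± SD). In the large subunit the highest were RPL21B at 3595, 5769 and 4371 and RPL36A at 3189, 5493 and 3679. For all 6 of these genes the order of deposited signals was culture 2, culture 3, culture 1, which is also the order of the array medians. The sets of RPS21A, RPS21B, RPS26A and RPL36A carry a letter code, described below. Among plain-named sets the highest mean signal was that of RPL21B, at 4578, so the leading subunit depended on the kind of set.

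Among members with no paralogue, RPL10, a late-joining protein near the peptidyl transferase centre, read 2602, 4060.4 and 3219.6. RPL5, which binds the 5S ribosomal RNA, read 2287, 3691 and 3112, and RPL3, which reaches into the peptidyl transferase centre, read 914, 1794 and 1452. Both followed the array medians in order. RPL25 and RPL39, whose proteins lie at the end of the tunnel through which the nascent chain leaves, read 1233, 2407 and 1658, and 1097, 2194 and 1597. RPS31, made as a fusion with ubiquitin, read 1965, 4014 and 2407. RPL30, which represses the splicing of its own transcript, read 892, 1927 and 1159. Over the 18 genes the deposited signals ran from 872 to 3584 in culture 1, from 1794 to 5415 in culture 2 and from 882 to 4040.5 in culture 3, so that none of them came near the limit for dim genes.

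The lowest signals that were not dim all belonged to genes with a paralogue. RPL9A read 162, 443 and 304, RPL22B read 194, 462 and 309 and RPS22B read 200.3, 634 and 373. RPL15A and RPS26B followed with means of 409 ± 151 and 465 ± 264. None of these 5 genes was bright, and in each the order of the cultures was again that of the array medians. RPL9B, at 559 ± 355, lay just under the limit for bright genes.

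RPL7A, the only dim member, shows how far a signal can depend on the probe set. Its plain-named probe set read 10.7, 4.27 and 7.56 and ran against the array medians. The pair of letter-coded sets of the same gene read 1805, 3233 and 2743, and 326, 827 and 679.7. The letter code of a member set is an i or an f before the ending _at, and the sets of the near-identical RPL7B carry such codes too. How the probes of these sets were chosen was not examined. Whether they also read related genes was not tested. In all, 21 members had several single-gene probe sets, and in 10 of these the highest and lowest mean signals differed by more than 2-fold. The widest differences after RPL7A were in RPS10B, with means of 990.3 and 4.68, in RPL7B, with 1937 and 132, and in RPS25B, with 1590.4 and 158. Of the 105 member probe sets, 55 had plain names, 50 carried a letter code and 2 were dim.

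In 31 pairs the A and B copies each had a single-gene probe set: 16 pairs of the large subunit, 13 of the small subunit, and the stalk pairs RPP1 and RPP2, whose A and B proteins are less alike. One copy gave the higher signal in every culture in 29 of the 31 pairs, the A copy in 16 and the B copy in 13. That order is one of probe sets. In 13 pairs several combinations of probe sets could be formed from sets that were not dim, and in 8 of these the sign of the mean log2 ratio of A over B depended on the combination chosen. The mean ratio is therefore given below as a description of the signals only, and what can be compared is how the ratio within an array varied from culture to culture, which no single scaling factor for an array can change. RPL7 was left out of that comparison, since its representative A probe set was dim.

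Most pairs kept their ratio within 1.5-fold. The range of log2(A/B) between the highest and lowest culture had a median of 0.35 over the 30 pairs, which compares with 0.37 over the 3051 pairs that can be formed from members that are not paralogues of each other. In 12 of the 30 the ratio stayed within 1.2-fold, and in 4 (13.3%) it ranged over more than 1.5-fold, against 22.9% of the non-paralogous pairs. Paralogues thus had nearly the typical range of other pairs of members. Pairs share genes and arrays, so these counts are not independent. With the representative probe sets the closest were RPL31 and RPL13. RPL13A read 581, 1593 and 974 and RPL13B 856, 2334 and 1466, which makes log2 ratios of -0.56, -0.55 and -0.59 in cultures 1, 2 and 3. For RPL31 the ratios were 0.37, 0.33 and 0.36, with letter-coded sets for the B copy. RPS0, which encodes a protein between the head and body of the small subunit, had ratios of -1.12, -1.07 and -1.03. RPS10 had 0.64, 0.60 and 0.68, with letter-coded sets for both copies. Whether a letter-coded set also reads the other copy was not tested, so a narrow range is one of probe set signals. With these sets the 4 pairs differed between cultures by at most 1.06-fold. With other sets the fold range reached 1.31 for RPS0 and 1.28 for RPS10, and with 1 of the 3 RPL31B sets that of RPL31 was 1.56 or 1.59, past 1.5-fold. RPL13 had a single set for each copy. In the RPS21 pair the copies gave nearly equal signals, with ratios of 0.07, 0.12 and -0.04, a range of 0.16 that is small beside the median pair. Each RPS21 copy had a single set, and both sets carry a letter code.

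**Figure D2:**
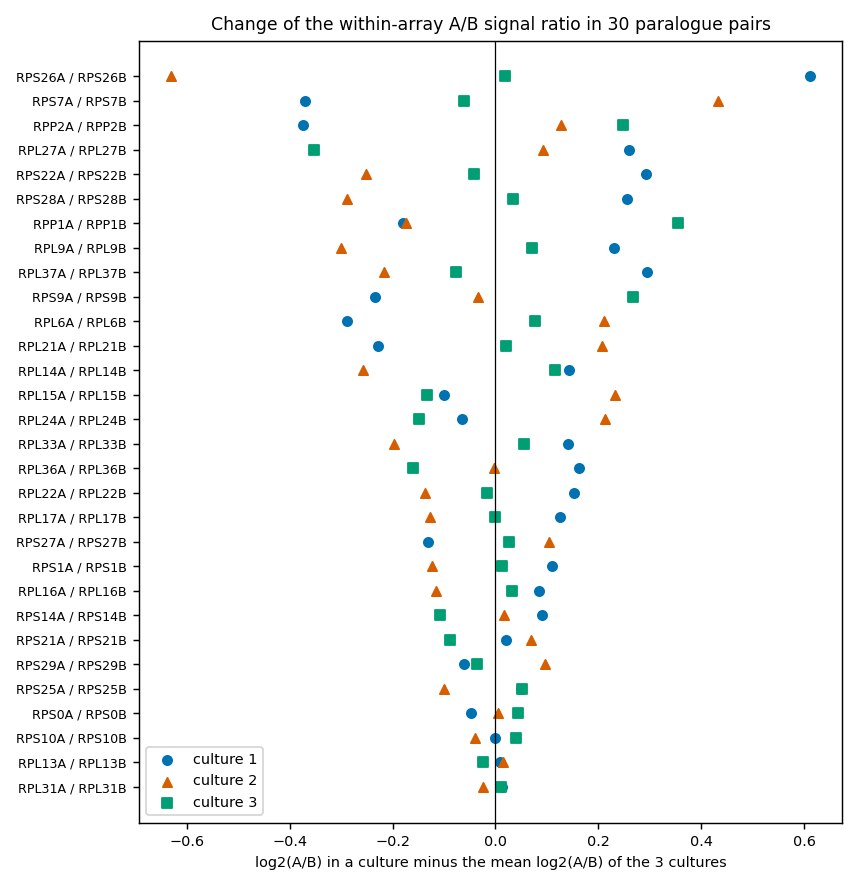
For each of 30 paralogue pairs, the log2 ratio of the A over the B signal in a culture minus the mean of that ratio over the 3 cultures; pairs are sorted by range. The spread widens from RPL31 and RPL13 at the bottom, with ranges of 0.04 and 0.04, to RPS7 and RPS26 at the top, with 0.80 and 1.24.

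The RPS7 copies lay furthest apart in culture 2. RPS7A read 873, 2487 and 1611 and RPS7B 767, 1254 and 1143, so that the copies were close in culture 1 and far apart in culture 2. The log2 ratios were 0.19, 0.99 and 0.50, a mean of 0.56 ± 0.40 (SD, n = 3) and a 1.74-fold range. Each copy had a further plain-named probe set, which read 825, 1951 and 1258 for RPS7A and 417, 728 and 609 for RPS7B. In all 4 combinations of these sets the ratio of A over B was highest in culture 2, with ranges from 0.44 to 0.80 on the log2 scale. Both combinations with the other RPS7A set, at 0.44 and 0.53, stayed under 1.5-fold. Rps7 lies on the solvent side of the small subunit and takes part in its assembly.

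RPS26 had the widest range of the 30 pairs, and its size depended on the probe set used for the A copy. RPS26A read 4395, 5793 and 4739 and RPS26B 243, 757 and 395, which makes log2 ratios of 4.18, 2.94 and 3.59. The A copy was thus 1.32-fold higher in culture 2 than in culture 1 as deposited, the smallest such difference among the 79 members, where the median over all genes that were not dim was 2.31-fold. The other RPS26A set read 1861, 3691 and 2479.6, and with it the ratio ranged over 0.65 in place of 1.24. With the brighter set the range was 0.71 after quantile normalization and 0.88 after cyclic loess. Both A sets carry a letter code.

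For RPL27 and RPP2 the ratio also ranged over more than 1.5-fold. RPL27A read 859, 2029 and 950.1 and RPL27B 695, 1844 and 1177. With this RPL27A set the A copy gave the higher signal in cultures 1 and 2 and the lower in culture 3. The other RPL27A set read 315, 1027 and 418, below RPL27B in every culture, so the order of the copies depended on the set. It was also lowest against RPL27B in culture 3, and gave a range of 0.65. Both RPL27A sets carry a letter code. RPP2A read 1205, 2599 and 2244 and RPP2B 2274, 3463 and 2749, with log2 ratios of -0.92, -0.41 and -0.29. Here the A copy was relatively low in culture 1. Without culture 1 the count of pairs past 1.5-fold was 1, without culture 2 it was 3 and without culture 3 it was 2. Under quantile normalization or cyclic loess it was 3, the RPP2 pair then lying below the limit.

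**Figure D3:**
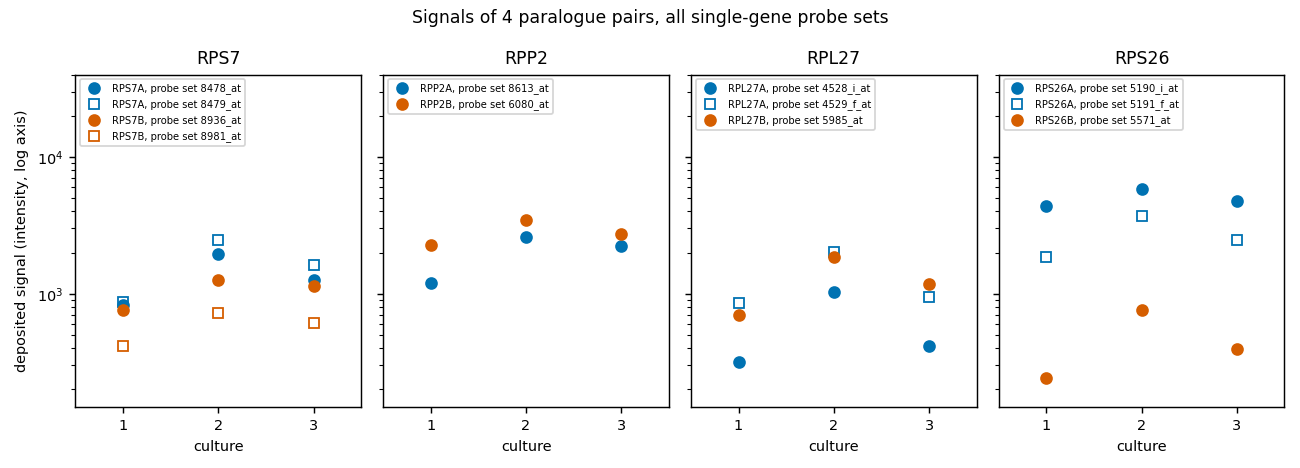
Deposited signals (log axis) of every single-gene probe set of RPS7, RPP2, RPL27 and RPS26 in the 3 cultures, with A copies in blue, B copies in orange and, where a gene has a pair of sets, the later ID as open squares. Both RPS7A sets lie further above the RPS7B sets in culture 2 than in culture 1, and the brighter RPS26A set spans 4395 to 5793 while RPS26B spans 243 to 757.

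With the representative sets, just below that limit were RPS22 (1.46-fold), RPS28 (1.46-fold), RPP1 (1.45-fold) and RPL9 (1.44-fold). RPS28B, whose protein is known to bind its own messenger RNA and promote its decay, read 863, 3091 and 1490.2, and RPS28A 1275, 3133 and 1889.6. The B copy was thus high in culture 2, at a deviation of 0.42, and its other probe set deviated there by 0.35. The other RPS28A set, at 0.44, was as high there, so the difference between the copies depended on the probe sets. RPL9B likewise deviated by 0.42 in culture 2, beside 0.12 for RPL9A. For RPS22 the range was 1.11-fold or 1.77-fold with the other RPS22B sets, so its place against the limit depended on the set. RPS9A and RPS9B, encoding a protein near the messenger RNA entry, had ratios of -1.24, -1.03 and -0.73. RPS9A was relatively high in culture 3, where it deviated by 0.17 while RPS9B deviated by -0.09. With the other RPS9B set the RPS9 ratio ranged over 1.74-fold in place of 1.42-fold.

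In many pairs the copy with the lower signal was relatively higher in culture 2, the brightest array. This was so in 23 of the 30 pairs, and in 20 under quantile normalization and under cyclic loess. The same was not counted in pairs that are not paralogues. Over all 79 members the deviation in culture 2 also fell with signal (r = -0.53). Whether the count is particular to paralogues was not tested. Across the pairs the size of the mean log2 ratio and its range had a correlation of r = 0.37 (n = 30 pairs, which share arrays), whereas past 1.5-fold were 3 of the 16 pairs whose signals lay within 2-fold of each other and 1 of the other 14. RPS22A over RPS22B, with log2 ratios of 3.72, 3.17 and 3.38, is an example, and its range of 0.54 was 0.18 after quantile normalization and 0.22 after cyclic loess. RPL6A over RPL6B, with -1.66, -1.16 and -1.29, is another. RPS7 ran the other way, as its brighter A copy was relatively higher in culture 2. The part of signal level in these ratios was not tested.

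As a set, ribosomal protein genes lay low in culture 3. At a common median 59 of 79 members had their lowest value in culture 3, against 34.2% of all genes that were not dim, and 75 of 79 lay below their own mean there, against 52.6% of all. The median deviations of the members were 0.16, 0.02 and -0.15 in cultures 1, 2 and 3, and those of all 3959 genes 0.03, 0.0011 and -0.01. After quantile normalization 37 members were lowest in culture 3, against 31.8% of all genes under that scaling, and after cyclic loess 40, against 31.4%.

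The direction in culture 3 held under each scaling that brought the arrays together, whereas that in culture 1 did not. The median in culture 3 was -0.07 both after quantile normalization and after cyclic loess, and -0.12 with arrays at the median of bright genes that are not members. In culture 1 it was -0.02 after quantile normalization and -0.0037 after cyclic loess. In culture 2 it was 0.12 and 0.09 under these, and it was -0.06 when culture 3 was left out at a common median. Members highest in culture 1 numbered 50 of 79, against 37.0% of all genes and 296 of the 493 bright genes that are not members. They numbered 21 after quantile normalization, against 29.0% of all genes, and 22 after cyclic loess, against 31.6%. Those highest in culture 2 numbered 26, against 35.6% of all genes, and 52 and 51 after quantile normalization and cyclic loess, against 41.7% and 37.6%. The order of cultures 1 and 2 for the whole set therefore depended on the scaling.

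**Figure D4:**
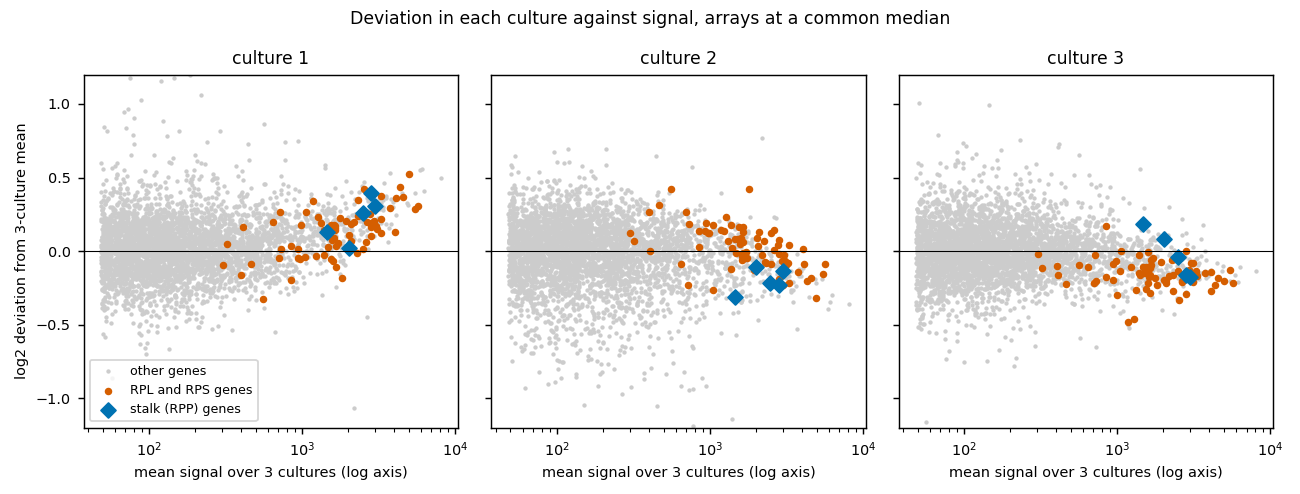
Log2 deviation of each gene from its 3-culture mean against mean signal (log axis), arrays at a common median, for 3959 genes; 1, 7 and 1 genes, none of them members, lie beyond the axis in cultures 1, 2 and 3. Members climb with signal in culture 1 (r = 0.61), descend with it in culture 2 (r = -0.53) and lie mostly below 0 in culture 3.

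Signal level moved with these deviations. Over the 79 members the deviation had a correlation with log2 mean signal of r = 0.61 in culture 1, -0.53 in culture 2 and -0.15 in culture 3. Genes share the arrays and are not independent. The correlations were 0.25, -0.36 and 0.17 after cyclic loess and 0.11, -0.28 and 0.22 after quantile normalization. Over the 493 bright genes that are not members they were 0.37, -0.16 and -0.21 at a common median. In the 20 members of lowest signal, from 303 to 1239, the median deviation was -0.01 in culture 1 and 0.14 in culture 2. In the 19 of highest signal, from 2833 to 5713, it was 0.29 and -0.10. In culture 3 the medians of the 4 signal classes lay between -0.18 and -0.11, and 2, 1, 1 and 0 members of these classes were above their mean. The part of signal level in the low values of culture 3 was not tested further. Bright genes that are not members, 493 in number, had medians of 0.12, -0.06 and -0.05 in the 3 cultures, and 191 of them (38.7%) were lowest in culture 3.

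**Figure D5:**
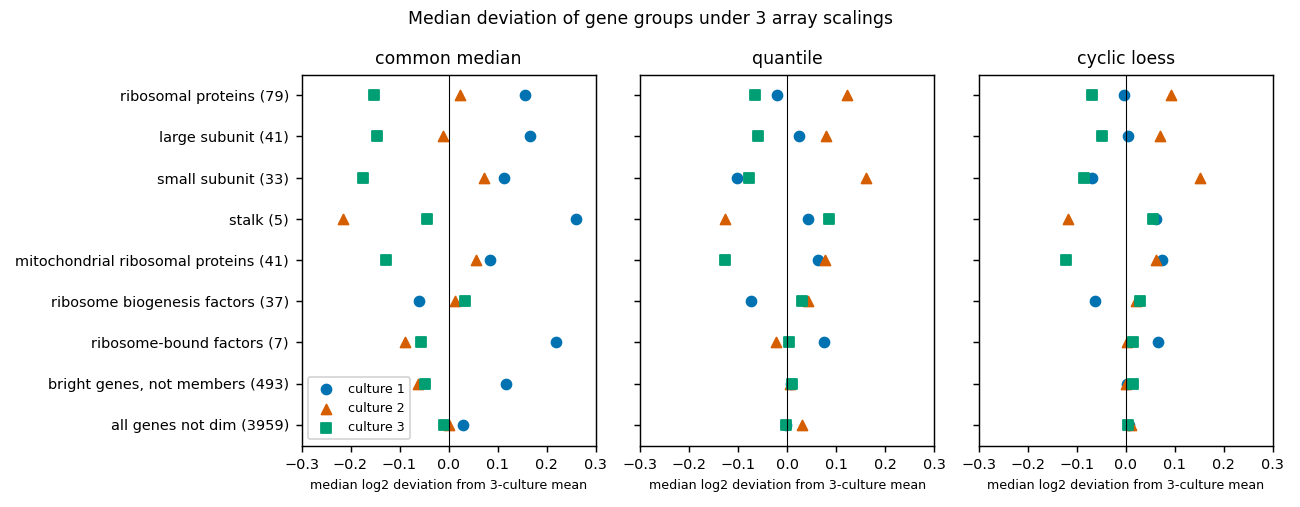
Median log2 deviation of gene groups in cultures 1, 2 and 3 under 3 array scalings, with the number of genes that were not dim in parentheses. Ribosomal proteins lie below 0 in culture 3 in each panel, and the stalk genes are the group lowest in culture 2, at -0.22, -0.13 and -0.12.

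The stalk genes lay low in culture 2. At a common median all 5 were below their own mean there, against 49.8% of all genes and 37 of 79 members. The same 5 were below it after quantile normalization, against 44.5% of all genes, and after cyclic loess, against 47.9%. P1A pairs with P2B in the stalk and P1B with P2A. RPP0, which anchors the stalk on the ribosomal RNA, read 1802, 3053 and 2606 and deviated by 0.26, -0.22 and -0.04. RPP1A read 959, 1666 and 1773, the only member of the 79 whose deposited signal was higher in culture 3 than in culture 2, and deviated by 0.13, -0.31 and 0.18. Its deviation in culture 2 was the lowest of all 79 members after cyclic loess (-0.24), and its deviation in culture 3 the highest (0.25). RPP2A and RPP2B deviated by -0.11 and -0.23 in culture 2. RPP1B, with 2249.6, 3893 and 2872, deviated by -0.14 there, and its other plain-named set by 0.0024. The median of the 5 genes in culture 2 was -0.22, beside 0.02 for all members, and -0.12 beside 0.09 after cyclic loess. All 5 were bright, with mean signals from 1466 to 3005, and the part of signal level in their low values was not tested.

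A few large and small subunit genes lay beside the stalk genes in culture 2. After cyclic loess RPS7B, RPL15B, RPS26A and RPL5 deviated by -0.21, -0.20, -0.18 and -0.13, which with RPP1A, RPP2B and RPP0 are the 7 lowest of the 79. At the other end were RPS28B (0.50), RPL9B (0.44) and RPS26B (0.33). The medians of the subunits at a common median were 0.17, -0.01 and -0.15 for the large and 0.11, 0.07 and -0.18 for the small subunit in cultures 1, 2 and 3. After quantile normalization they were 0.02 and 0.08 for the large and -0.10 and 0.16 for the small subunit in cultures 1 and 2.

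The widest differences between cultures stayed under 2-fold. At a common median 11 of 79 members ranged over more than 1.5-fold, against 18.3% of all genes, and none ranged over 2-fold, against 3.59%. Without culture 1 the count was 3, against 9.22% of all genes, without culture 2 it was 7, against 5.89%, and without culture 3 it was 6, against 11.3%. After quantile normalization and cyclic loess it was 4, against 17.7% and 17.3%, and under both these were RPS20, RPL27A, RPL9B and RPS28B. Of these, RPS20 alone had a plain-named set, and RPL9B was not bright. RPS20, a protein of the small subunit head, read 872, 1797 and 882 and deviated by 0.34, 0.14 and -0.48. It was low in culture 3, where its deposited signal was almost that of culture 1. RPL27A was also low in culture 3, with deviations of 0.23, 0.23 and -0.46, and both of its probe sets lay there below their mean. RPS2, near the messenger RNA entry, deviated by 0.42, -0.09 and -0.33. After cyclic loess RPS20, RPL27A, RPS10B and RPS2 were the 4 lowest members in culture 3, at -0.42, -0.40, -0.25 and -0.23.

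The other wide ranges were of genes high in culture 1 or in culture 2. RPS26A deviated by 0.52, -0.32 and -0.21, RPS3 by 0.43, -0.21 and -0.23, RPL36A by 0.36, -0.09 and -0.27 and RPL29 by 0.35, -0.08 and -0.27, all highest in culture 1. After quantile normalization their deviations there were 0.16, 0.06, 0.02 and 0.13, and RPL36A was then highest in culture 2. The other RPS26A set deviated by 0.22, -0.02 and -0.20, which is under 1.5-fold. RPL9B, at -0.33, 0.42 and -0.09, and RPS28B, at -0.19, 0.42 and -0.23, were instead high in culture 2. The narrowest ranges at a common median were those of RPL28, an essential large subunit protein, at 1051, 2370.2 and 1749, with a log2 range of 0.10, followed by RPS12 (0.13), RPS13 (0.14) and RPS9B (0.15). The order depended on the scaling: after cyclic loess these 4 ranged over 0.17, 0.35, 0.36 and 0.25, and RPS21B, at 0.04, ranged least.

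Several proteins of the ribosome bind zinc. Of these genes 9 had single-gene probe sets, 8 of the 9 were bright, and their median deviations of 0.11, 0.07 and -0.20 lay near those of all members. RPL37A read 2341, 4164 and 2906, RPL37B 1467, 3720.3 and 2357 and RPS27B 1779, 4104 and 2610.1. RPS29A and RPS29B had mean signals of 2029.6 ± 857 and 1645 ± 595. At a common median 8 of the 9 were lowest in culture 3, beside 59 of the 79 members and 34.2% of all genes, and after quantile normalization or cyclic loess 5 were.

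Adjacent members on a chromosome were compared as well. In 6 cases neighbouring protein-coding genes of the RefSeq table were both members that were not dim. RPL24A and RPL30 deviated by 0.16, 0.13 and -0.29, and 0.19, 0.07 and -0.26, and their ratio ranged over 0.10 (log2). RPS22A and RPL39 kept theirs within 0.12, RPS9B and RPL21A within 0.17, RPS15 and RPP2A within 0.26 and RPS14B and RPS22A within 0.29. RPL13A and RPP1A differed most, with a range of 0.80, RPL13A deviating by 0.18 and RPP1A by -0.31 in culture 2.

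Related families did not all share the low values of culture 3. Mitochondrial ribosomal protein genes, of which 41 were not dim, were lowest there in 29, against 34.2% of all genes. Their median deviation was -0.13 at a common median and -0.12 after cyclic loess, so a low value there was shared with the cytosolic set. Ribosome biogenesis factors were lowest there in 10 of 37, against the same 34.2% of all genes, with a median of 0.03. Factors that bind the finished ribosome had 5 bright members among 7. ASC1, a scaffold protein on the small subunit head, read 1880.2, 4005 and 3009, STM1, which binds idle ribosomes, read 1154, 2041 and 1735, and EGD1 and EGD2, the subunits of the nascent polypeptide-associated complex, read 1586, 2952 and 2128, and 1507, 2784 and 2060.1. At a common median the median deviations of the 7 were 0.22, -0.09 and -0.06, and 4 of the 7 were lowest in culture 3. Their median in culture 3 was 0.0036 after quantile normalization and 0.014 after cyclic loess, so its sign depended on the scaling. None of the 7 ranged over more than 1.5-fold between cultures, against 18.3% of all genes, and 7 genes are too few to be told apart from that share.

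Of the 14 known regulators none was bright and 2 were dim, FHL1 at 32.4 ± 14.0 and STB3 at 46.4 ± 17.0. RAP1, the main activator of these genes, read 38.8, 84.6 and 66.4 and IFH1, the coactivator recruited by Fhl1, 29.3, 98.2 and 79.6. IFH1 deviated by -0.37, 0.14 and 0.24 and was the only one of the 12 that were not dim to range over more than 1.5-fold. HMO1, a high-mobility-group protein at these promoters, had the highest signal of the list, 351 ± 114, and SFP1 read 49.6, 139 and 100.0. The kinase genes TOR1 and SCH9 had means of 66.3 ± 30.9 and 149 ± 57.3. Of the 10 dedicated chaperones and loading factors 4 were dim and 1 was bright, the histone and ribosomal protein chaperone NAP1 at 699.5 ± 216, while SQT1, which escorts Rpl10, read 123, 309 and 219.5 and YAR1, which escorts Rps3, read 172, 406 and 323. None of the 6 that were not dim ranged over more than 1.5-fold. Lists of 12 and 6 genes are too short to be told apart from the 18.3% of all genes.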

How the data were processed

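Each of 3 independent cultures gave total RNA, which was biotin-labelled in 1 amplification cycle for its own Affymetrix array, per the labels' protocols. The values are linear intensities as deposited by the authors. Per the submitters' processing notes, GCOS was used. No source used here states the summary method, background correction or scaling, and the 2% trimmed means (101, 223 and 167) show that the arrays share no scale. Nothing says which steps were run together, so no batch could be examined.

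Of 9335 probe sets, 60 were controls and 6504 had 1 gene in the platform annotation, all matched to RefSeq (assembly R64). Each of 5656 genes was represented by a plain-named probe set where it had one (digits and _at), otherwise, and among several, by that of higher mean signal. Signals were floored at 1, taken to log2 and brought to the common median of the 3959 genes that were not dim. Alternatives were other scalings (quantile and cyclic loess with limma 3.58.1 in R 4.3.3), probe sets, dim limits, log2(signal + 16) and leaving out each culture. The count lowest in culture 3, the stalk median, neighbouring genes and all probe set combinations were added after the data were seen. Python 3.11.15, numpy 2.4.6 and pandas 2.3.3 were used, and the steps were tested on simulated data. The simulated arrays had less noise than the real ones and no difference between arrays that changed with signal. The members and lists were chosen with earlier results of these data known. By the rule for named genes, the text names the 6 members of highest and the 6 of lowest mean signal, the 10 of widest and 4 of narrowest range, the stalk genes, paralogue pairs and genes of the lists, and further members as examples chosen after their values were seen. Promoter motifs and protein identities were not analysed here.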

Additional observations from a re-analysis of the deposited data

How the results depend on the processing

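With signals as deposited, the array-wide difference set the values: the member medians were -0.53 in culture 1 and 0.57 in culture 2, the stalk median in culture 2 was 0.33, 78 members ranged over more than 1.5-fold, 78 were highest in culture 2 and 0 were lowest in culture 3. The member median in culture 1 was -0.021 after quantile normalization and -0.0037 after cyclic loess, and members highest in culture 2 were 52, 51 and, at the median of bright non-members, 45 (main setting 26). Members past 1.5-fold were 4 after quantile normalization, 4 after cyclic loess, 6 at a common trimmed mean and 6 with log2(signal + 16) (main setting 11), and those lowest in culture 3 were 37 after quantile normalization. With plain-named probe sets only, 52 genes, 51 of them not dim, and 15 pairs are left. Past 1.5-fold were then 6 of 51 members (main setting 11 of 79), and 16 of 51 were highest in culture 2 (26 of 79). Lowest in culture 3 were 37 of 51 (59 of 79), bright were 47 of 52 (73 of 80), and 2 of 15 pairs passed 1.5-fold (4 of 30). These counts are of fewer genes, and their shares lay close to those of the main setting. With probe sets averaged per gene 0 members were dim, and 8 pairs passed 1.5-fold in any combination of probe sets. Leaving out a culture gave 3 to 7 members past 1.5-fold, 27 to 64 highest in culture 2, 1 to 3 pairs, and a median in culture 2 of -0.063 to 0.081. These counts and ranges are over 2 cultures in place of 3, so they cannot be set directly beside the main setting. Quantile normalization turned the deviations from the median member of RPS3 in culture 3 (0.013) and RPL36A in culture 2 (0.045). The causes of these changes were not tested. The member median in culture 3 was below 0 in every setting run, and the stalk median in culture 2 in every one except the deposited signals. Of 35 deviations of 14 named members by 0.1 or more from the median member, 33 kept their sign under quantile normalization and 35 under cyclic loess, log2(signal + 16) and averaged probe sets. No paired analysis was possible because the 3 cultures form 1 group. Signals near those of dim genes limit what can be said of FHL1, STB3, IFH1, RAP1, TOR1 and the chaperones of low signal.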
